A study of Mus musculus with 24 samples.

Results

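The respiratory chain subunits encoded in the nucleus were followed through 4 sorted CD4 T cell subsets of lupus-prone mice, with and without treatment by a pair of recombinant ligands. The members were the protein-coding genes of the count table whose GENCODE M21 symbols name a subunit of complexes I to V, by the stems Ndufa, Ndufb, Ndufc, Ndufs, Ndufv, Sdha to Sdhd, Uqcr, Cox4 to Cox8 and Atp5, without the Ndufaf assembly factors. They came to 85 of 39056 genes. By stem, 38 were counted to complex I, 4 to complex II, 8 to complex III, 18 to complex IV and 17 to complex V. The symbol alone set the choice and the complex. Cyc1, the cytochrome c1 subunit of complex III, was therefore not a member, and Atp5s, which is named for the synthase, was. Ndufa4 and Ndufa4l2 were counted to complex I by their names. Of the 85, 81 passed the filter on low counts and were tested, and Cox6a2, Cox7b2, Cox8b and Cox8c were not.

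Female NZBWF1/j mice, the hybrids of the NZB and NZW strains that develop a lupus-like disease with nephritis, supplied all cells. Treated mice were 23 weeks old and were given mouse OX40L and JAG1, each at 2 mg/kg, into the peritoneum in 3 weekly doses, and control mice of the same age and sex were given PBS. Cells were collected on week 26 and sorted as Tconv (CXCR5- GITR-), Treg (CXCR5- GITR+), TFH (CXCR5+ PD1Hi GITR-/low) and TFR cells (CXCR5+ PD1Hi GITRHi). Each of the 8 groups of subset and treatment had 3 libraries of total RNA. Nothing in the labels says whether the 3 came from separate mice. The p-values therefore rest on the spread between libraries, which may be technical and was estimated jointly over all 8 groups.

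The respiratory chain sits in the inner mitochondrial membrane. Complex I takes electrons from NADH and complex II from succinate, both pass them through ubiquinone to complex III, cytochrome c carries them to complex IV, which reduces oxygen, and complex V, the ATP synthase, uses the proton gradient to make ATP. Complexes I, III, IV and V join subunits of both genomes, with the catalytic core of complex IV from mitochondrial DNA, while complex II is wholly nuclear encoded. T cells raise respiration and mitochondrial mass on activation, and regulatory T cells are known for their reliance on respiration.

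Library totals ran between 2537901 and 53788643 counts, and the control TFH and control TFR libraries held the lowest, at most 15234765 counts. Regulatory markers (Foxp3, Ikzf2, Il2ra, Ctla4 and Tnfrsf18) summed to 2758 ± 185 CPM in treated TFR, 2717 ± 51.7 CPM in treated Treg, 888 ± 84.98 CPM in treated TFH and 204 ± 7.73 CPM in treated Tconv cells (SD, n = 3 each), where CPM are counts relative to library totals scaled by edgeR's TMM factors. In control mice the regulatory sums averaged 2354 CPM in TFR, 2033 CPM in Treg, 994 CPM in TFH and 140 CPM in Tconv cells. Follicular markers (Cxcr5, Pdcd1, Bcl6, Icos and Il21) summed to 911, 974, 732 and 302 CPM in treated TFR, TFH, Treg and Tconv cells. In control mice these means were 1370, 1216, 1060 and 258 CPM in the same order. Kidney transcripts stood out in some libraries. The 4 podocyte markers (Nphs1, Podxl, Synpo and Wt1) summed to 899.7 CPM in treated TFH library 3, 317 CPM in treated TFR library 1 and 718 and 688 CPM in control Tconv libraries 1 and 2, against at most 97.7 CPM in the other 20. Fits without these 4 libraries are called by the podocyte rule, and fits that also leave out treated Treg library 3 and control TFH library 3, which held tubule transcripts, by the proximal tubule rule. The part of kidney transcripts in the member values was not tested.

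Levels differed widely between members. Compared per length as TPM (counts per kb of exon, scaled so that all genes of a library have the same total), the highest means over the 24 libraries within each complex were those of Ndufa2 (236 TPM), an accessory subunit of complex I, Sdha (126 TPM), the flavoprotein of succinate dehydrogenase, Uqcrh (292 TPM), the hinge protein of complex III, Cox8a (373 TPM), a small subunit of complex IV, and Atp5a1 (424 TPM), the alpha subunit of the synthase. The lowest were Ndufa4l2 (0.545 TPM), Sdhc (33.7 TPM), Uqcrq (72.9 TPM), Cox7b2 and Cox8c with no read in any library, and Atp5s (3.85 TPM). Exons of 27 members overlap a gene on the opposite strand and those of 5 a gene on the same strand, among them Ndufa13, Uqcrb, Cox4i1, Cox6c, Atp5a1 and Atp5d, and since the sources used here do not give the strand setting of the counting, reads of such pairs cannot be told apart. Many subunits also have processed pseudogenes, whose share of the reads is uncertain.

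On the CPM scale the 85 members summed higher in every treated than in every control library of TFR, TFH and Tconv cells. In TPM without mitochondrially encoded genes the order of the means flipped for TFH cells, and the TFH and the Tconv libraries overlapped. Treated TFR libraries summed to 5861, 6150 and 6376 CPM, against 3864, 3911 and 4016 CPM in control TFR libraries. Treated TFH libraries summed to 4253, 3880 and 4227 CPM and control TFH libraries to 3554, 3593 and 3569 CPM. Sums averaged 5353 ± 152 CPM in treated and 4398 ± 302 CPM in control Tconv cells, and 4776 ± 212 CPM in treated and 4444 ± 131 CPM in control Treg cells (SD, n = 3 each), where the Treg libraries overlapped. By complex, the TFR sums were 1633 ± 53.4 CPM in treated and 1105 ± 22.3 CPM in control cells for complex I, 361 ± 17.9 CPM in treated and 258 ± 21.7 CPM in control cells for complex II, 639 ± 27.98 CPM in treated and 417 ± 48.8 CPM in control cells for complex III, 1001 ± 48.8 CPM in treated and 626 ± 49.5 CPM in control cells for complex IV, and 2494 ± 119 CPM in treated and 1525 ± 75.2 CPM in control cells for complex V. In bulk RNA, more cells of one kind and more RNA per cell cannot be told apart.

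Of the 81 tested members, 56 had their highest group mean in treated TFR cells and 16 in treated Tconv cells on the CPM scale. In TPM without mitochondrially encoded genes these numbers were 45 and 5, with 16 highest in control TFR and 11 in control TFH cells. In TPM, whose total holds the mitochondrially encoded genes, the sum was 12122 ± 156 TPM in treated and 7712 ± 107 TPM in control TFR cells, and 12949 ± 166 TPM in treated and 10494 ± 11.2 TPM in control TFR cells with those genes left out of the total. In Treg cells all members summed to 10403 ± 291 TPM in treated and 7145 ± 1081 TPM in control cells with those genes. These Treg libraries lay apart. Without those genes the Treg sums were 11017 ± 250 TPM in treated and 9533 ± 1806 TPM in control cells, and the libraries overlapped. For TFH cells the order depended on the scale. The sum was 7875 ± 584 TPM in treated and 5938 ± 283 TPM in control TFH cells with those genes in the total, and 8525 ± 772 TPM in treated and 9414 ± 242 TPM in control TFH cells without them. For Tconv cells it was 9612 ± 142 TPM in treated and 9475 ± 226 TPM in control cells without those genes, where the mean sums of complexes I, II and III were lower in treated cells, at 2855 ± 58.4 TPM in treated and 2943 ± 77.2 TPM in control cells for complex I.

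**Figure D1:**
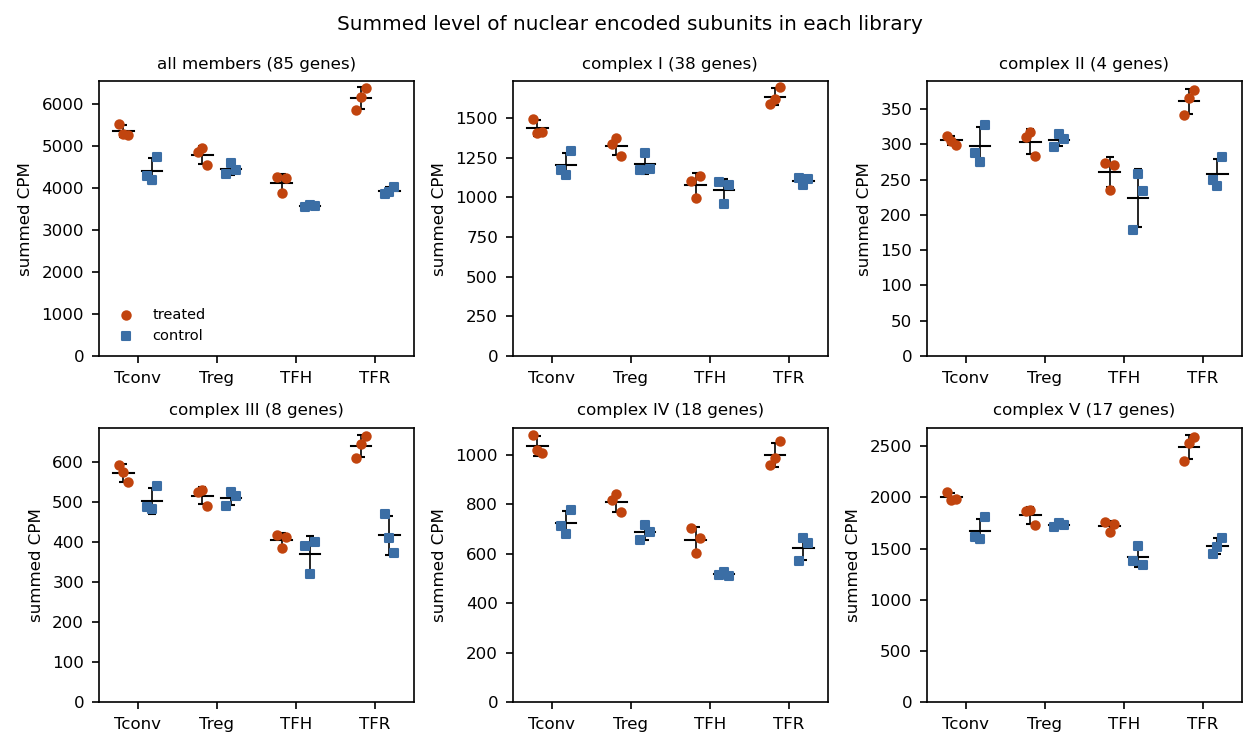
Summed CPM of the members, in all and by complex, in each of the 24 libraries. Points are libraries and the lines and bars are the mean and SD of 3 libraries, with treated groups left of control groups, and the treated TFR libraries, at 5861 to 6376 CPM for all members, lie above all control TFR libraries.

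In edgeR's fit over all 24 libraries, more members were called between treated and control TFR cells than in any of the other 13 comparisons, but not with only the libraries compared (26 members, against 60 in treated TFR against TFH cells) nor by limma voom (27 against 66). In treated against control TFR cells 39 of 81 members were higher (48.1%, where 15.6% of the 18789 genes tested were higher) and 0 were lower (6.39% of all genes), at an adjusted p under 0.05 in edgeR's quasi-likelihood test. Lower members numbered 0 at an unadjusted p under 0.05, 1 by DESeq2 and 0 by limma voom. By complex, 14 of 38 members of complex I, 2 of 4 of complex II, 5 of 8 of complex III, 7 of 14 tested of complex IV and 11 of 17 of complex V were higher. The median log2 fold change was 0.67 over the members and 0.40 over all genes, and leaving mitochondrially encoded genes out of the scaling put them at 0.77 and 0.50.

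Within complex I the 2 largest changes among called members were in accessory subunits. Ndufa12 had 39.3, 38.98 and 45.1 CPM in treated TFR libraries, against 19.3, 7.73 and 8.91 CPM in control TFR libraries. The treated libraries all lay above the controls, and the log2 fold change was 1.77 ± 0.31 (SE, edgeR adjusted p = 0.00025). Ndufa13, also known as GRIM-19, had 63.6, 64.5 and 63.1 CPM in treated and 27.9, 38.8 and 23.5 CPM in control TFR libraries, which also lay apart (1.08 ± 0.18, edgeR adjusted p = 0.00015). The flavoprotein subunits at the NADH end rose less. Ndufv1, which binds NADH, averaged 51.6 ± 1.31 CPM in treated and 33.4 ± 6.89 CPM in control TFR cells (0.62 ± 0.16, edgeR adjusted p = 0.0087), and its partner Ndufv2 97.8 ± 7.29 CPM in treated and 61.9 ± 10.01 CPM in control TFR cells (0.66 ± 0.13, edgeR adjusted p = 0.00083). Ndufs1, the largest iron-sulfur subunit, did not pass, at 72.2 ± 1.45 CPM in treated and 71.9 ± 9.28 CPM in control TFR cells. Other called members included Ndufa1, Ndufa6, Ndufa7, Ndufa9, Ndufa11, Ndufb11, Ndufs6, Ndufs8 and Ndufv3, with log2 fold changes between 0.48 and 1.02.

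Of complexes II and III, 7 of 12 members were called. Sdhb, the iron-sulfur subunit of succinate dehydrogenase, had 83.6, 85.8 and 85.3 CPM in treated and 61.5, 51.3 and 51.2 CPM in control TFR libraries (0.63 ± 0.15, SE, edgeR adjusted p = 0.0051). The membrane anchor Sdhc rose as well (0.60 ± 0.21, edgeR adjusted p = 0.049), while the catalytic Sdha, at 181 ± 8.85 CPM in treated and 141 ± 13.8 CPM in control TFR cells, and the anchor Sdhd, at 52.2 ± 3.36 CPM in treated and 32.9 ± 2.87 CPM in control TFR cells, did not pass. Of complex III, Uqcrb, a small subunit that binds ubiquinone, had 45.6, 44.02 and 47.6 CPM in treated and 18.6, 24.1 and 6.63 CPM in control TFR libraries (1.46 ± 0.35, edgeR adjusted p = 0.0048). Uqcr11, another small subunit, had 30.8, 28.8 and 34.7 CPM in treated and 7.75, 23.8 and 10.2 CPM in control TFR libraries (1.17 ± 0.42, edgeR adjusted p = 0.049). The core protein Uqcrc1, the hinge protein Uqcrh and the small Uqcrq rose by 0.51, 0.73 and 0.85 on the log2 scale.

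In complex IV, Cox6a1 had 78.8, 80.7 and 84.2 CPM in treated TFR libraries, against 44.7, 40.96 and 19.5 CPM in control TFR libraries. All treated libraries of this broadly expressed isoform lay above the controls (1.20 ± 0.21, SE, edgeR adjusted p = 0.00026). Cox6b1, at the interface of the complex IV dimer, had 88.1, 78.8 and 83.8 CPM in treated and 33.99, 45.97 and 43.2 CPM in control TFR libraries (1.03 ± 0.32, edgeR adjusted p = 0.025). The other called members were Cox4i1 (0.61), Cox5a (0.76), Cox7a2l (0.82), Cox7b (0.85) and Cox8a (0.91). Cox5b, at 90.1 ± 12.8 CPM in treated and 68.4 ± 12.8 CPM in control TFR cells, and Cox6c, at 86.8 ± 6.37 CPM in treated and 69.8 ± 19.1 CPM in control TFR cells, did not pass.

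Complex V held the smallest adjusted p of the members. Atp5b, the catalytic beta subunit, had 663, 709 and 708 CPM in treated TFR libraries and 374, 392 and 383 CPM in control TFR libraries. The libraries lay far apart (0.86 ± 0.06, SE, edgeR adjusted p = 3.2e-09). The central stalk subunit Atp5c1 averaged 176 ± 6.50 CPM in treated and 81.4 ± 6.37 CPM in control TFR cells (1.12 ± 0.10, edgeR adjusted p = 2.7e-08). Atp5e, the epsilon subunit of the same stalk, had 59.02, 52.4 and 57.96 CPM in treated and 27.9, 20.6 and 26.9 CPM in control TFR libraries (1.17 ± 0.22, edgeR adjusted p = 0.00061). The 3 genes that encode the same mature c subunit of the rotor ring all rose, Atp5g1 by 1.01, Atp5g2 by 1.40 and Atp5g3 by 0.78 on the log2 scale. Atp5g2 had 95.7, 107 and 115 CPM in treated and 59.1, 24.5 and 36.2 CPM in control TFR libraries. Atp5a1, Atp5f1, Atp5h, Atp5k and Atp5o also rose. The delta subunit Atp5d did not pass, at 126 ± 16.7 CPM in treated and 118 ± 1.99 CPM in control TFR cells.

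**Figure D2:**
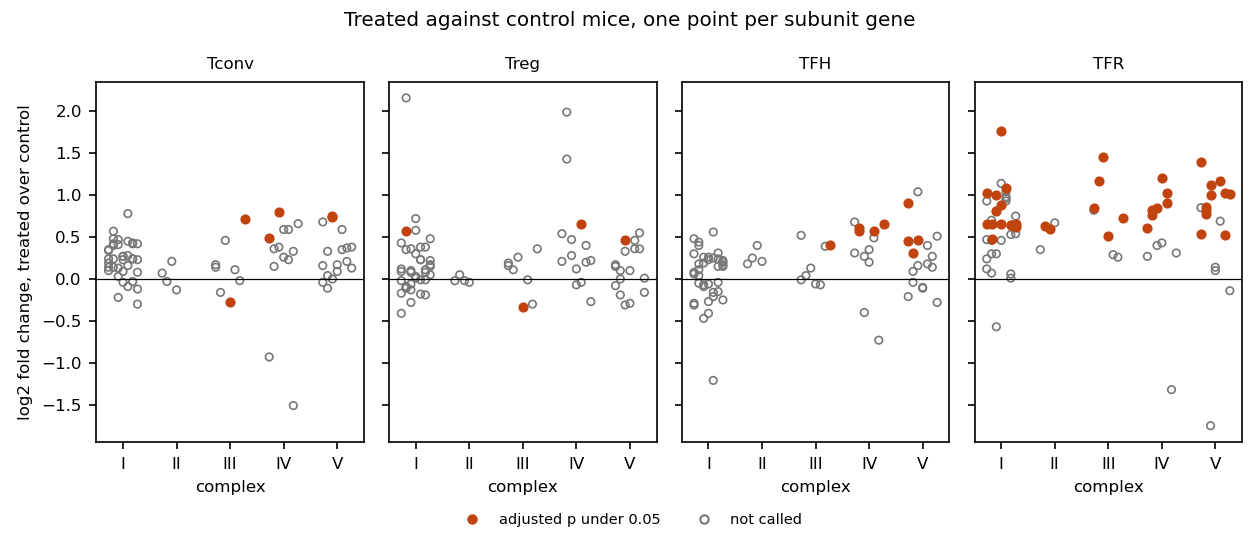
Log2 fold changes of treated over control mice for the tested members in each subset, by complex. Filled points passed an edgeR adjusted p under 0.05, and in TFR cells 39 points are filled and lie above 0, while at most 3 of 81 members per panel lie outside the axis.

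Of the 39 called members, 16 were called in all 15 alternative fits (Ndufa12, Ndufa13, Ndufv2, Uqcrc1, Uqcrh, Cox5a, Cox6a1, Cox7a2l, Cox7b, Atp5a1, Atp5b, Atp5c1, Atp5e, Atp5g2, Atp5g3 and Atp5h) and 25 in all 6 fits that left out 1 library. The count was 24 by the podocyte rule and 29 by the proximal tubule rule. Uqcr11 lost its call without any 1 library except control TFR library 2 (adjusted p of 0.082 to 0.16), and Sdhc without any except control TFR library 3 (0.063 to 0.17). Cox6b1 lost it without treated TFR library 1 or 3 or control TFR library 1 (0.056 to 0.086), and Atp5g1 without treated or control TFR library 3 (0.074 to 0.089). Plasma cell markers (Jchain, Sdc1 and Prdm1) summed to 256 to 284 CPM in treated and 66.9 to 89.3 CPM in control TFR libraries, and B cell markers to 9.63 to 11.9 CPM in treated and 4.55 to 6.97 CPM in control TFR libraries. T cell markers (Cd3d, Cd3e, Cd3g, Cd4 and Cd28) summed to 1921 to 2225 CPM in treated and 1734 to 1838 CPM in control TFR libraries, and follicular T cell markers (Cxcr5, Pdcd1, Bcl6, Icos and Il21) to 835 to 963 CPM in treated and 1301 to 1446 CPM in control TFR libraries. Both lay apart, and the part of these 4 lists in the result was not tested.

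Promoters are shown for the called member of each complex with the lowest p in TFR cells among those with 1 RefSeq entry of GRCm38.p6 whose start lay within 100 bases of the annotated gene start. The letters are those of the reference genome and not of NZBWF1/j, stop before both annotated starts, and run 5′ to 3′ on the strand of the gene. Capitals mark matches on either strand to GCGCANGCG (NRF1), CCGGAAG (ETS family, with GABP), AAGATGGCG (YY1), GGGCGG (SP and KLF families), CCAAT (NFY) or TATAAA, and a pair of NRF1 matches in Cox6a1 overlaps.
Ndufv2 (chr17:66101560-66101809, minus strand): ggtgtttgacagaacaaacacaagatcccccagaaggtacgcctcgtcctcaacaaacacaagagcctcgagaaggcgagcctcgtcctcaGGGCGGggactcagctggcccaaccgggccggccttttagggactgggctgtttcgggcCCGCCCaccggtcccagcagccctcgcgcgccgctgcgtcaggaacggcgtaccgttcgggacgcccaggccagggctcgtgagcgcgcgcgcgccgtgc
Sdhb (chr4:140961021-140961202, plus strand): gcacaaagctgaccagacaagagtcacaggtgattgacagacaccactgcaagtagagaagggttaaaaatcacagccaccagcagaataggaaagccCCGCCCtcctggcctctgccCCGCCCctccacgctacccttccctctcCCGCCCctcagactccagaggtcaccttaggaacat
Uqcrc1 (chr9:108936398-108936632, plus strand): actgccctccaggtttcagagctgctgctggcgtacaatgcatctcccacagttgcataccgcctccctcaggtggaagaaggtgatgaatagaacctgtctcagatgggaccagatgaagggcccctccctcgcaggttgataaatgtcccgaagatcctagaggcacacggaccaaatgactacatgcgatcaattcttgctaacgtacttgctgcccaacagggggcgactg
Cox6a1 (chr5:115348982-115349208, minus strand): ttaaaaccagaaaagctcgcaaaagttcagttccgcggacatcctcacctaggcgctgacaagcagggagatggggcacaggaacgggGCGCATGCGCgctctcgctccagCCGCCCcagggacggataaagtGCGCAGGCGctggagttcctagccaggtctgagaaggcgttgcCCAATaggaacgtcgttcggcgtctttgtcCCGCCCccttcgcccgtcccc
Atp5b (chr10:128083057-128083272, plus strand): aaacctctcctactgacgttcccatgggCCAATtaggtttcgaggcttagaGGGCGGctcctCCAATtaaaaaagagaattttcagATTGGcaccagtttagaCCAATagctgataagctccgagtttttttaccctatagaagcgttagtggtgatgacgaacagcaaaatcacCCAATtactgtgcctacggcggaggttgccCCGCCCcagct

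The printed stretch of Cox6a1 held 3 NRF1 matches and that of Atp5b 5 matches to CCAAT. Those of Sdhb and Ndufv2 held 3 and 2 matches to GGGCGG, and that of Uqcrc1 held none of the 6 motifs. In the bases not printed, up to 50 after the start, Uqcrc1 held NRF1 matches, Sdhb matches to CCGGAAG and CCAAT, and Cox6a1 a match to CCGGAAG. In windows of 300 bases, 250 before to 50 after the start, the NRF1 motif occurred in 29.2% of the 72 entries of 67 members, against 6.25% of all 32851 entries. CCGGAAG occurred in 22.2% of member entries against 8.86% of all, and AAGATGGCG in 9.72% against 1.40%. Shares lay closer for GGGCGG (38.9% of member entries and 35.7% of all), CCAAT (41.7% and 37.4%) and TATAAA (11.1% and 13.6%). The members called higher in treated TFR cells had 34 entries and the other members 38. Of these, 35.3% of called and 23.7% of other entries held the NRF1 motif, 29.4% of called and 15.8% of other entries held CCGGAAG and 55.9% of called and 28.9% of other entries held CCAAT. For GGGCGG the shares were 38.2% of called and 39.5% of other entries, for AAGATGGCG 5.88% of called and 13.2% of other entries, and for TATAAA 5.88% of called and 15.8% of other entries. These shares were not tested. A match describes the letters and is not a site of binding.

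The effect in TFR cells was set against that in Treg cells, the regulatory subset without CXCR5. The treatment effect was larger in TFR than in Treg cells for 9 of 81 members (11.1%, against 5.24% of all genes) and smaller for 0 (2.26% of all genes), and those with a smaller effect numbered 0 at an unadjusted p under 0.05, 0 by DESeq2 and 0 by limma voom. The median difference was 0.60 over the members and 0.29 over all genes. All 9 were among the 39 members called higher in treated TFR cells, a comparison that shares the TFR libraries. For Cox6a1 the difference of log2 fold changes was 1.25 ± 0.29 (SE, edgeR adjusted p = 0.011), with 53.8, 57.7 and 48.1 CPM in treated and 54.4, 55.4 and 54.6 CPM in control Treg libraries, which overlap. For Atp5g2 it was 1.23 ± 0.34 (edgeR adjusted p = 0.03). For Ndufv1 it was 1.03 ± 0.23 (edgeR adjusted p = 0.0081), with 38.4, 38.04 and 34.1 CPM in treated and 48.6, 54.9 and 43.5 CPM in control Treg libraries, where all treated lay below all controls.

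On the CPM scale Uqcrc1 moved in opposite directions in these subsets. It had 137, 155 and 148 CPM in treated and 112, 102 and 95.9 CPM in control TFR libraries, but 112, 112 and 98.2 CPM in treated and 138, 134 and 135 CPM in control Treg libraries. The difference of the effects was 0.84 ± 0.12 (SE, edgeR adjusted p = 0.00028). The Treg call of Uqcrc1 held in 7 of 15 alternative fits, among them 2 of the 6 without 1 library. In TPM the Treg libraries overlapped, at 102, 102 and 92.9 TPM in treated and 104, 101 and 79.4 TPM in control libraries. The other 5 were Cox7a2l (0.89), Atp5a1 (0.62), Atp5b (0.86), Atp5c1 (0.66) and Atp5g3 (0.96), and these 5 and Uqcrc1 were called in all 21 alternative fits. The count of 9 was 18 with only the libraries compared and 14 by DESeq2. Atp5g2 lost its call in 9 of the 12 fits without 1 library (0.056 to 0.081), the exceptions being those without control Treg, treated TFR or control TFR library 1. By the podocyte rule Atp5g2 had an adjusted p of 0.063 and Ndufv1 of 0.052.

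**Figure D3:**
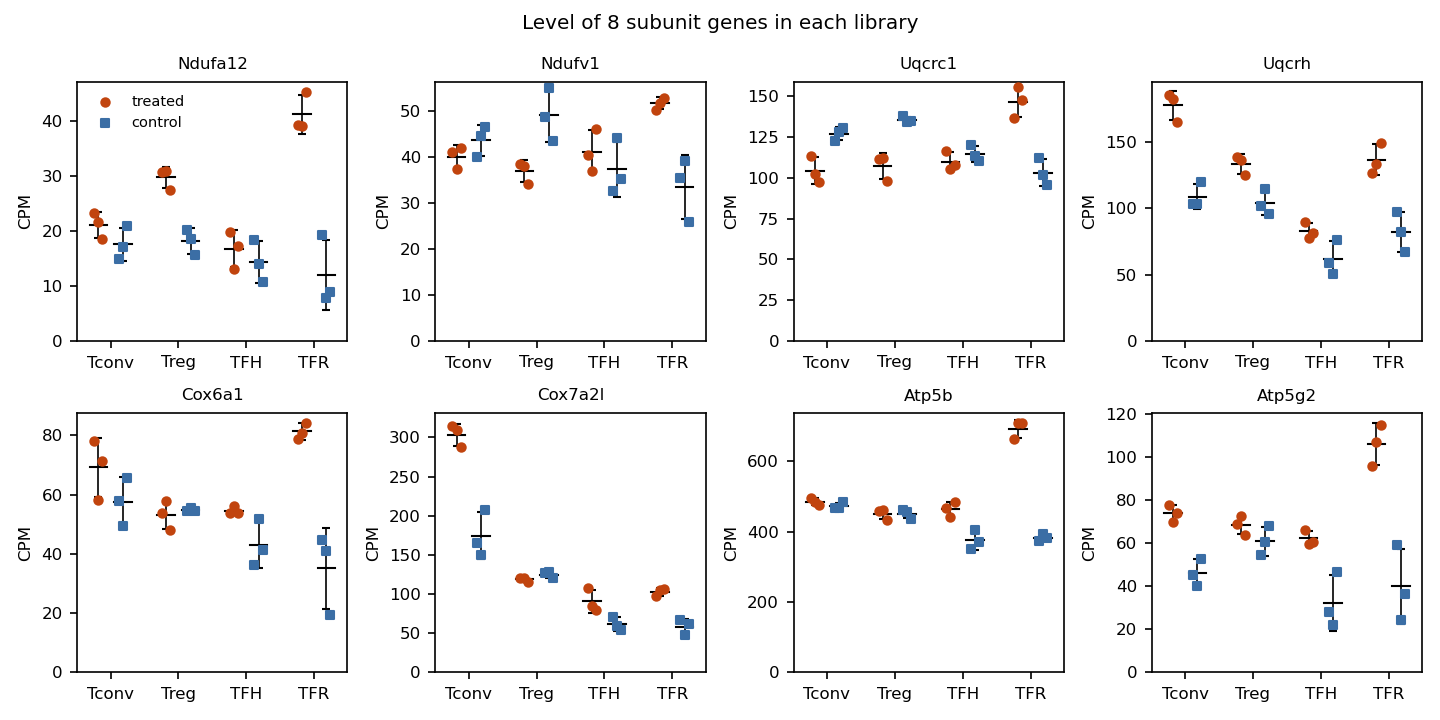
CPM of 8 members in each library, by subset, with treated groups left of control groups and lines and bars for the mean and SD of 3 libraries. Atp5b and Cox6a1 are higher in the treated TFR than in the control TFR libraries, and Cox7a2l is higher in the treated Tconv than in the control Tconv libraries.

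Fewer members changed in TFH cells. In treated against control TFH cells 9 of 81 members were higher (11.1%, against 16.5% of all genes) and 0 were lower (5.86% of all genes), while lower members numbered 4 at an unadjusted p under 0.05, 4 by DESeq2 and 0 by limma voom. The share of higher members was below that of all genes, and the median was 0.18 over members and 0.42 over all genes. Uqcrh had 89.7, 77.5 and 81.1 CPM in treated and 58.6, 50.2 and 76.3 CPM in control TFH libraries, apart but close (0.41 ± 0.14, SE, edgeR adjusted p = 0.04). Cox6c had 46.9, 45.9 and 39.1 CPM in treated and 15.1, 30.9 and 37.6 CPM in control TFH libraries (0.65 ± 0.23, edgeR adjusted p = 0.048). Atp5g2 had 66.2, 59.7 and 60.6 CPM in treated and 27.99, 22.02 and 46.8 CPM in control TFH libraries (0.91 ± 0.25, edgeR adjusted p = 0.011). The other 6 were the complex IV subunits Cox5a (0.61), Cox7a2l (0.57) and Cox8a (0.57) and the synthase subunits Atp5a1 (0.45), Atp5b (0.31) and Atp5c1 (0.46), and no member of complexes I or II was among the 9.

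None of the 9 was called in all 15 alternative fits. The count was 15 by DESeq2, of which 4 were lower, 1 with only the libraries compared, 0 by limma voom, and 5 by the podocyte rule or without the filter. It was 5 without treated TFH library 1 or 3, 15 without control TFH library 2 and 16 without control TFH library 3. Uqcrh lost its call without treated TFH library 1 or 3 or control TFH library 1 or 2 (adjusted p of 0.074 to 0.14), and Cox6c without any 1 library except control TFH library 3 (0.055 to 0.18). The biological coefficient of variation within a group was highest in control TFH libraries, at 1.05, and lowest in treated Tconv libraries, at 0.0751. It was 0.584 in treated and 0.927 in control TFR libraries, and 0.617 in the fit over all 24 libraries. Plasma cell markers summed to 206 to 261 CPM in treated and 27.5 to 44.04 CPM in control TFH libraries, B cell markers to 19.8 to 21.1 CPM in treated and 40.6 to 79.8 CPM in control TFH libraries, T cell markers to 2178 to 2478 CPM in treated and 1712 to 1810 CPM in control TFH libraries, and follicular T cell markers to 869 to 1065 CPM in treated and 1158 to 1275 CPM in control TFH libraries. The groups did not overlap in any of these 4 lists, whose part in the member values was not tested.

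In Tconv cells 5 of 81 members were higher (6.17%, against 6.89% of all genes) and 1 was lower (1.23%, against 3.05% of all genes) in treated against control mice, shares that lay below those of all genes. The median log2 fold change was 0.23 over members and 0.02 over all genes. Changes were above 0 for 63 of the 81 members and 9621 of the 18789 genes. Cox7a2l, a homologue of subunit VIIa that joins complexes III and IV into supercomplexes, had 314, 309 and 288 CPM in treated and 165, 150 and 208 CPM in control Tconv libraries (0.80 ± 0.13, SE, edgeR adjusted p = 0.00026). Uqcrh had 186, 182 and 165 CPM in treated and 104, 103 and 120 CPM in control Tconv libraries (0.71 ± 0.14, edgeR adjusted p = 0.0011). Atp5c1 had 177, 175 and 175 CPM in treated and 104, 96.99 and 112 CPM in control Tconv libraries (0.75 ± 0.09, edgeR adjusted p = 6.3e-06). Atp5h (0.74) and Cox4i1 (0.49) were also higher, and in all 3 genes given by library the groups lay apart. Uqcrc1 was lower, with 113, 102 and 97.4 CPM in treated and 123, 128 and 130 CPM in control Tconv libraries (-0.28 ± 0.09, edgeR adjusted p = 0.043).

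Control Tconv libraries 1 and 2 carried kidney transcripts. Without the libraries of either rule 1 control Tconv library is left, assumed to vary like the other groups, and 1 member, Atp5c1, was called, while Cox7a2l had an adjusted p of 0.18 by the podocyte and 0.15 by the proximal tubule rule and Uqcrh of 0.27 and 0.15. The count of 6 was 21 with only the libraries compared and 48 by limma voom. Uqcrc1 lost its call without any 1 library except treated Tconv library 1 (0.089 to 0.23), and Cox4i1 without any 1 library (0.06 to 0.17). T cell markers summed to 2882 to 2917 CPM in treated and 1191 to 1564 CPM in control Tconv libraries and plasma cell markers to 49.7 to 53.6 CPM in treated and 17.3 to 22.9 CPM in control Tconv libraries, and the part of these differences in the member values was not tested.

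In Treg cells 3 of 81 members were higher (3.70%, against 5.17% of all genes) and 1 was lower (1.23%, against 3.56% of all genes) in treated against control mice. The median log2 fold change was 0.11 over members and 0.09 over all genes. Ndufv2 had 86.3, 83.4 and 82.9 CPM in treated and 52.8, 60.5 and 56.9 CPM in control Treg libraries (0.57 ± 0.13, SE, edgeR adjusted p = 0.0054). Cox7b, a small subunit of complex IV, had 80.9, 89.1 and 78.8 CPM in treated and 47.2, 55.8 and 54.95 CPM in control Treg libraries (0.66 ± 0.19, edgeR adjusted p = 0.032). Atp5c1 had 158, 160 and 152 CPM in treated and 106, 111 and 126 CPM in control Treg libraries (0.46 ± 0.09, edgeR adjusted p = 0.0022). In each the treated libraries lay above the controls, and Atp5c1 passed in all 4 subsets. Uqcrc1, with treated libraries below the controls, was the lower member (-0.34 ± 0.09, edgeR adjusted p = 0.016).

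Ndufv2 and Atp5c1 were called in all 15 alternative fits of the Treg comparison. The count of 4 was 25 with only the libraries compared, 26 by limma voom and 8 by DESeq2, and 2 without treated Treg library 3 or any 1 control Treg library, by either kidney rule, or without the filter. Cox7b lost its call without any 1 library (adjusted p of 0.065 to 0.15), and Uqcrc1 without treated Treg library 3 or any 1 control Treg library (0.058 to 0.14). Plasma cell markers summed to 87.3 to 89.9 CPM in treated and 59.3 to 64.4 CPM in control Treg libraries, and follicular T cell markers to 727 to 736 CPM in treated and 1046 to 1071 CPM in control Treg libraries, and their part was not tested.

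The treatment effect was larger in TFH than in Tconv cells for 1 of 81 members (1.23%, against 14.4% of all genes) and smaller for 2 (2.47%, against 5.22% of all genes). The median difference was -0.07 over members and 0.34 over all genes. The difference of log2 fold changes was 0.27 ± 0.09 for Atp5b (SE, edgeR adjusted p = 0.039), -0.78 ± 0.25 for Cox5b (edgeR adjusted p = 0.038), a zinc-binding subunit of complex IV, and -0.66 ± 0.21 for Ndufs3 (edgeR adjusted p = 0.037), a core subunit of complex I. Atp5b had 467, 443 and 485 CPM in treated and 352, 404 and 370 CPM in control TFH libraries, and 496, 484 and 476 CPM in treated and 468, 468 and 484 CPM in control Tconv libraries. All 3 lost their calls by the podocyte rule (adjusted p of 0.36, 0.56 and 0.52). The count of 3 was 0 without treated Tconv library 1 or 2, control Tconv library 1 or 2 or treated TFH library 3, 1 without treated Tconv library 3 or treated TFH library 2, 5 without control Tconv library 3, 7 without control TFH library 2 and 6 without control TFH library 3. Without control TFH library 1, Atp5b, Cox5b and Ndufs3 had adjusted p of 0.075, 0.069 and 0.055.

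Among treated mice, TFR cells had more RNA of many members than TFH cells, the follicular subset with low or no GITR. In treated TFR against treated TFH cells 25 of 81 members were higher (30.9%, against 4.61% of all genes) and 0 were lower (4.96% of all genes), and lower members numbered 0 at an unadjusted p under 0.05, 0 by DESeq2 and 0 by limma voom. The median was 0.62 over members and -0.13 over all genes. The 25 were 6 members of complex I, 1 of complex II, 5 of complex III, 4 of complex IV and 9 of complex V. Of these, 18 were also higher in treated than in control TFR cells, 72% of the 25 and 46.2% of the 39, and both comparisons use the treated TFR libraries.

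Uqcr11 had 30.8, 28.8 and 34.7 CPM in treated TFR libraries, against 11.1, 9.69 and 15 CPM in treated TFH libraries (1.40 ± 0.42, SE, edgeR adjusted p = 0.037). Ndufa12 had 39.3, 38.98 and 45.1 CPM in treated TFR libraries, against 19.8, 13.1 and 17.2 CPM in treated TFH libraries (1.30 ± 0.30, edgeR adjusted p = 0.0062). Cox7b had 102, 101 and 114 CPM in treated TFR libraries, against 57.3, 32.8 and 45.9 CPM in treated TFH libraries (1.22 ± 0.19, edgeR adjusted p = 0.00015). In all 3 genes every TFR library lay above every TFH library. Atp5b, at 693 ± 26.1 CPM in treated TFR cells, against 465 ± 21.2 CPM in treated TFH cells, differed by 0.58 on the log2 scale.

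Ndufv2, Uqcrc1, Uqcrh, Cox7b, Atp5b, Atp5c1 and Atp5f1 were called in all 15 alternative fits. The count of 25 was 38 with mitochondrially encoded genes left out of the scaling, 44 by DESeq2, 60 with only the libraries compared and 66 by limma voom. It was 9 by the podocyte rule and 13 by the proximal tubule rule, under which Ndufa12 had an adjusted p of 0.069 and 0.061 and Uqcr11 of 0.13 and 0.11. It was 16 without treated TFH library 1 or 3, 9 without treated TFH library 2, 12 without treated TFR library 2 and 11 without treated TFR library 3. Uqcr11 lost its call without any 1 library except treated TFH library 3 (0.077 to 0.17) and Ndufa12 without treated TFH library 2 (0.051).

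Against Treg cells in treated mice, 4 of the 5 members called higher in TFR cells were synthase subunits. In treated TFR against treated Treg cells 5 of 81 members were higher (6.17%, against 1.78% of all genes) and 0 were lower (2.83% of all genes), where lower members numbered 0 at an unadjusted p under 0.05, 0 by DESeq2 and 1 by limma voom. The median was 0.38 over members and 0.12 over all genes. Atp5g3 had 143, 150 and 153 CPM in treated TFR libraries, against 89.6, 88.3 and 86.3 CPM in treated Treg libraries (0.75 ± 0.15, SE, edgeR adjusted p = 0.0044). Atp5d had 108, 130 and 141 CPM in treated TFR libraries, against 82.3, 84.1 and 71.7 CPM in treated Treg libraries (0.67 ± 0.13, edgeR adjusted p = 0.0035). Atp5b had 663, 709 and 708 CPM in treated TFR libraries, against 458, 461 and 434 CPM in treated Treg libraries (0.62 ± 0.06, edgeR adjusted p = 2.9e-06). In each the TFR libraries lay above the Treg libraries, and Atp5a1 (0.44) and Uqcrc1 (0.45) completed the 5. All 5 were called in all 6 fits without 1 library, and the count was 17 by DESeq2, 52 with only the libraries compared and 62 by limma voom, which reach well beyond the 17 members of the synthase. Plasma cell markers summed to 256 to 284 CPM in treated TFR and 87.3 to 89.9 CPM in treated Treg libraries, and their part was not tested.

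TFH cells had less RNA of some members than Tconv cells. In treated TFH against treated Tconv cells 12 of 81 members were lower (14.8%, against 7.77% of all genes) and 0 were higher (10.3% of all genes), where higher members numbered 3 at an unadjusted p under 0.05, 2 by DESeq2 and 2 by limma voom. The median was -0.34 over members and 0.14 over all genes. Cox7a2l had 108, 85.3 and 80.3 CPM in treated TFH and 314, 309 and 288 CPM in treated Tconv libraries (-1.74 ± 0.14, SE, edgeR adjusted p = 4.5e-09). Ndufa6, an accessory subunit of complex I, had 35.7, 35.9 and 41.8 CPM in treated TFH and 99.6, 95.5 and 82.8 CPM in treated Tconv libraries (-1.29 ± 0.22, edgeR adjusted p = 0.00019). Uqcrh had 89.7, 77.5 and 81.1 CPM in treated TFH and 186, 182 and 165 CPM in treated Tconv libraries (-1.10 ± 0.14, edgeR adjusted p = 3.7e-06). These 3 lay apart in every library and were called in all 15 alternative fits. The count of 12 was 7 by the podocyte rule or without treated TFH library 2, 22 by DESeq2, 45 with only the libraries compared and 41 by limma voom.

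In control TFH against control Tconv cells 11 of 81 members were lower (13.6%, against 15.1% of all genes) and 2 were higher (2.47%, against 9.89% of all genes), shares below those of all genes. Cox7a2l had 71.3, 58.7 and 54.8 CPM in control TFH and 165, 150 and 208 CPM in control Tconv libraries (-1.50 ± 0.14, SE, edgeR adjusted p = 4.8e-08). Uqcrfs1, the Rieske iron-sulfur protein of complex III, averaged 40.1 ± 7.76 CPM in control TFH and 71.3 ± 11.8 CPM in control Tconv cells (-0.84 ± 0.17, edgeR adjusted p = 0.0012), and Uqcrh 61.7 ± 13.3 CPM in control TFH and 109 ± 9.43 CPM in control Tconv cells (-0.80 ± 0.14, edgeR adjusted p = 0.00023). The higher members were Cox5b (0.65 ± 0.18, edgeR adjusted p = 0.012) and Atp5d (0.65 ± 0.14, edgeR adjusted p = 0.0014), which had an adjusted p of 0.43 and 0.19 by the podocyte rule, and Cox5b of 0.069 without control Tconv library 2. The count of 13 was 7 by the podocyte rule, 5 with only the libraries compared, 2 by limma voom, 8 without control Tconv library 3 and 22 without control TFH library 3.

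**Figure D4:**
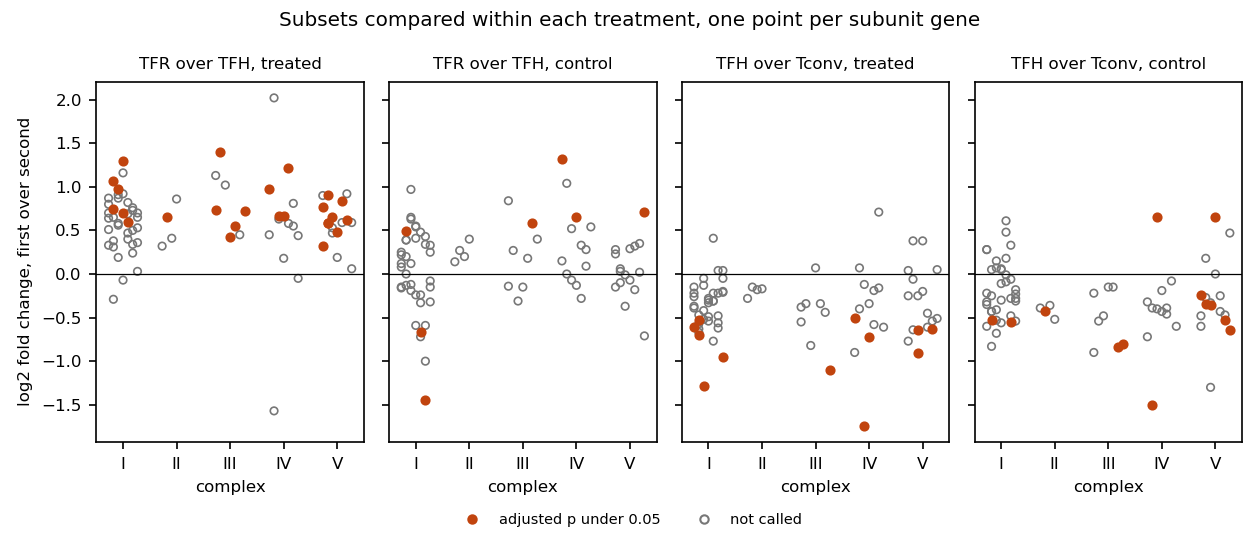
Log2 fold changes of the tested members between subsets, for TFR over TFH and TFH over Tconv cells in treated and in control mice, by complex. Filled points passed an edgeR adjusted p under 0.05, and in treated mice the 25 filled points of TFR over TFH lie above 0 and the 12 of TFH over Tconv below 0, while at most 3 of 81 members per panel lie outside the axis.

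In control TFR against control TFH cells 6 of 81 members were higher (7.41%, against 7.82% of all genes) and 3 were lower (3.70%, against 8.0% of all genes). Cox6c had 58.1, 91.8 and 59.5 CPM in control TFR and 15.1, 30.9 and 37.6 CPM in control TFH libraries, which lay apart (1.32 ± 0.24, SE, edgeR adjusted p = 0.00097). Atp5s had 3.58, 8.28 and 9.10 CPM in control TFR and 0, 0 and 1.77 CPM in control TFH libraries (edgeR adjusted p = 0.031). Atp5l averaged 47.99 ± 9.39 CPM in control TFR and 29.03 ± 10.8 CPM in control TFH cells (0.71 ± 0.20, edgeR adjusted p = 0.021). Of the lower members, Ndufb4 averaged 5.79 ± 2.61 CPM in control TFR and 15.8 ± 12.5 CPM in control TFH cells (-1.44 ± 0.48, edgeR adjusted p = 0.044), and Ndufa7 17.2 ± 2.97 CPM in control TFR and 27.3 ± 4.79 CPM in control TFH cells (-0.66 ± 0.21, edgeR adjusted p = 0.039). Cox7a1 rested on 1 library, with 0, 0 and 0 CPM in control TFR and 0, 10.1 and 0 CPM in control TFH libraries (edgeR adjusted p = 0.037), and its fitted change was 0.00 without control TFH library 2.

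No member of that comparison was called in all 15 alternative fits. The count of 9 was 0 with only the libraries compared and by limma voom, 1 by the podocyte rule, 5 without the filter, 15 by DESeq2 and 16 without control TFH library 3. Atp5s lost its call without control TFR library 3 or control TFH library 1 or 2 (adjusted p of 0.052 to 0.058), and Atp5l without control TFR library 3 or control TFH library 1 (0.073 to 0.081). Ndufa7 lost it without control TFR or control TFH library 3 (0.1 each), Ndufb4 without control TFR library 1 or 2 or control TFH library 2 (0.098 to 0.31), and Cox7a1 without any 1 control TFR library or control TFH library 2.

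In control TFR against control Treg cells 6 of 81 members were lower (7.41%, against 7.46% of all genes) and 0 were higher (2.28% of all genes), where higher members numbered 1 at an unadjusted p under 0.05, 1 by DESeq2 and 0 by limma voom. Cox7a2l had 66.5, 47.3 and 61.8 CPM in control TFR and 127, 128 and 120 CPM in control Treg libraries (-1.10 ± 0.14, SE, edgeR adjusted p = 3.7e-05), which lay apart, and it was called in all 15 alternative fits. Atp5h, of the peripheral stalk of the synthase, averaged 59.4 ± 3.67 CPM in control TFR and 88.6 ± 3.76 CPM in control Treg cells (-0.58 ± 0.15, edgeR adjusted p = 0.021), and Ndufv1 33.4 ± 6.89 CPM in control TFR and 48.99 ± 5.72 CPM in control Treg cells (-0.55 ± 0.16, edgeR adjusted p = 0.037). The count of 6 was 1 with only the libraries compared and by limma voom, 3 without control Treg library 1 or 2, and 11 without control TFR library 1 or 2. Atp5h and Ndufv1 lost their calls without control Treg library 1 or 2 or control TFR library 3 (adjusted p of 0.056 to 0.068 for Atp5h and 0.089 to 0.16 for Ndufv1).

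Few members were called between Treg and Tconv cells. In treated Treg against treated Tconv cells 3 of 81 members were lower (3.70%, against 5.54% of all genes) and 0 were higher (6.37% of all genes), where higher members numbered 0 at an unadjusted p under 0.05, 0 by DESeq2 and 16 by limma voom. Cox7a2l had 120, 121 and 116 CPM in treated Treg and 314, 309 and 288 CPM in treated Tconv libraries (-1.35 ± 0.14, SE, edgeR adjusted p = 2.1e-07), and was called in all 15 alternative fits. Ndufb11 (-0.54 ± 0.16, edgeR adjusted p = 0.026) and Atp5h (-0.53 ± 0.15, edgeR adjusted p = 0.024) were also lower. The count of 3 was 1 without treated Tconv library 1 or 2 or any 1 treated Treg library, or with mitochondrially encoded genes left out of the scaling, 5 by DESeq2, 41 with only the libraries compared and 43 by limma voom. Ndufb11 lost its call without any 1 library (0.074 to 0.13) and Atp5h without any except treated Tconv library 3 (0.056 to 0.13).

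In control Treg against control Tconv cells 1 member was higher (1.23%, against 5.90% of all genes), Atp5d (0.65 ± 0.13, SE, edgeR adjusted p = 0.0021), and 1 was lower (1.23%, against 3.40% of all genes), Cox7a2l (-0.48 ± 0.13, edgeR adjusted p = 0.025). Atp5d had an adjusted p of 0.33 by the podocyte rule. The count of 2 was 1 by either kidney rule, 8 with only the libraries compared, 20 by limma voom and 5 by DESeq2, and 1 without control Tconv library 3 or any 1 control Treg library, where Cox7a2l lost its call (0.069 to 0.13).

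Several subunits have isoforms that other tissues favour, and these were low in most libraries. Cox4i1, the common isoform of subunit IV, averaged 181 ± 14.1 CPM in treated and 119 ± 35.3 CPM in control TFR cells, while Cox4i2, the isoform known from lung, had 18 reads in treated TFH library 3, 10 in treated TFR library 1 and 20 and 15 in control Tconv libraries 1 and 2. Ndufa4l2, a paralogue of Ndufa4, had 20, 25, 36 and 51 reads in the same libraries. Those are the 4 libraries of the podocyte rule, and in the other 20 the 2 genes had at most 5 reads. The muscle isoform Cox6a2 had 6.54 CPM (60 reads) in control TFR library 2, and Cox7a1 10.1 CPM (26 reads) in control TFH library 2. Per length these were 33.8 TPM for Cox6a2 and 58.9 TPM for Cox7a1, which had at most 4.72 TPM in any other library. Markers of striated muscle (Ckm, Acta1, Myh4, Tnnt3 and Mylpf) summed to 1.45 to 10.1 CPM in control TFR and 2.09 to 7.35 CPM in control TFH libraries, and their part was not tested. Cox7b2 and Cox8c, both known from testis, had no read.

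Most of the 13 subunits encoded in mitochondrial DNA were lower under treatment, where called nuclear ones were mostly higher. In treated against control mice 12 of 13 were called lower in Tconv, 12 in Treg, 12 in TFH and 11 in TFR cells. Of all genes 3.05%, 3.56%, 5.86% and 6.39% were called lower in these subsets. Median log2 fold changes of the 13 were -2.02, -2.45, -2.47 and -1.83, against 0.02, 0.09, 0.42 and 0.40 over all genes. The 13 summed to 23993 ± 1209 CPM in treated and 97772 ± 5847 CPM in control TFR cells (SD, n = 3 each). In TFH cells the sums were 28315 ± 4094 CPM in treated and 160748 ± 13790 CPM in control cells (SD, n = 3 each). mt-Co1, the catalytic subunit of complex IV, averaged 8991 ± 381 CPM in treated and 39962 ± 2268 CPM in control TFR cells (-2.15 ± 0.12, edgeR adjusted p = 4.7e-11). mt-Co2, its partner in the core, averaged only 11.3 ± 0.866 CPM in treated and 37.5 ± 6.98 CPM in control TFR cells, and since near-identical copies of mitochondrial DNA lie in the nuclear genome, counts of such genes are uncertain.

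**Figure D5:**
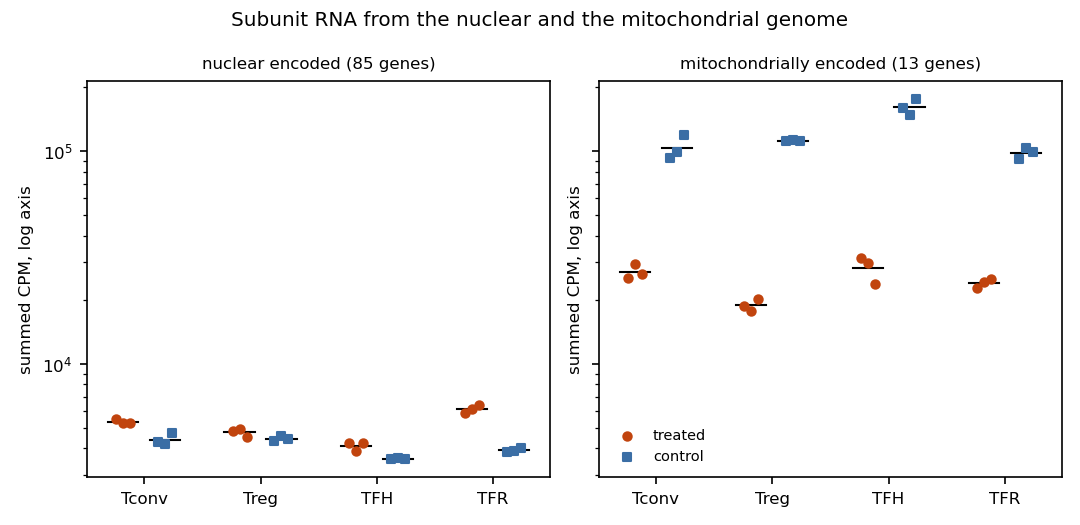
Summed CPM on a log axis of the 85 nuclear encoded members and of the 13 mitochondrially encoded subunits in each library, with treated groups left of control groups. In TFR cells the mitochondrially encoded sums are 22641 to 24972 CPM in treated and 91440 to 102967 CPM in control libraries, while the nuclear sums are 5861 to 6376 CPM in treated and 3864 to 4016 CPM in control libraries.

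Other genes of respiration were set beside the 15.6% of all genes that were higher and the 6.39% that were lower in treated TFR cells. In treated against control TFR cells 1 of 15 tested complex I assembly factors was higher and 0 lower, 2 of 33 assembly factors of complexes II to V were higher and 1 lower, and 4 of 17 genes of the TCA cycle were higher and 0 lower. Of 13 genes of cytochrome c and ubiquinone synthesis 3 were higher and 2 lower. Cycs, the electron carrier, averaged 52 ± 0.748 CPM in treated and 19.6 ± 7.15 CPM in control TFR cells (1.40 ± 0.22, edgeR adjusted p = 0.00011), and Cyc1 58.8 ± 3.72 CPM in treated and 33.4 ± 1.93 CPM in control TFR cells (0.82 ± 0.24, edgeR adjusted p = 0.018). Coq8a, of ubiquinone synthesis, was lower in treated mice in all 4 subsets, in TFR cells with a log2 fold change of -0.74 (edgeR adjusted p = 0.00039).

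Of 14 regulators of mitochondrial biogenesis 3 were higher (Myc, Tfam and Twnk) and 1 (Polg) was lower in treated TFR cells. Tfam, which packages and transcribes mitochondrial DNA, averaged 68.5 ± 3.56 CPM in treated and 50.7 ± 6.46 CPM in control TFR cells (0.43 ± 0.14, edgeR adjusted p = 0.035), and the transcription factor Myc 144 ± 14.98 CPM in treated and 78.96 ± 12.4 CPM in control TFR cells (0.87 ± 0.14, edgeR adjusted p = 0.00011). The transcription factor genes Nrf1, at 71.97 ± 6.37 CPM in treated and 75.4 ± 11.1 CPM in control TFR cells, and Gabpa, at 90.5 ± 3.00 CPM in treated and 88.3 ± 22.8 CPM in control TFR cells, did not pass. In treated TFR against treated TFH cells 4.61% of all genes were higher and 4.96% lower. There 4 of 17 TCA cycle genes were higher and 0 lower, and 0 of 15 complex I assembly factors were higher.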

How the data were processed

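CORALL libraries were made from rRNA-depleted total RNA of the sorted cells, per the labels' protocols. STAR, featureCounts and the mm10 build are named in the submitters' processing notes. The deposited table holds whole-number read counts per gene from the authors, for 24 libraries, 3 in each of 8 groups. The sources used here do not say whether the kit's molecular identifiers were used, nor the strand setting.

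Gene IDs were matched without version to GENCODE M21 (38872 matched, 184 not). Counts were filtered with filterByExpr, scaled by TMM and tested with edgeR 4.0.16 (quasi-likelihood F test, R 4.3.3) over 8 group means and all 24 libraries, as a two-sided test. P-values were adjusted over all 18789 genes tested (Benjamini-Hochberg), and calls had an adjusted p under 0.05. The script was tested on simulated data with the same spread per gene in every group. Its behaviour under the unequal spreads of the 8 groups was not tested. SE is the log2 fold change over the root of F. CPM carry the TMM factors, and TPM used exon unions and served to compare genes. Alternatives used DESeq2 1.42.0, limma 3.58.1 voom, other scaling, filters, blocks and left-out libraries. No 2 replicates agreed within sampling noise.

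The genes named were, per treatment comparison and complex, the called member with the largest change in each direction (and the next where over 4 were called), the 3 largest per direction between subsets and for differences of effects, the highest and lowest levels per complex, and fixed isoform pairs; others were named after their values were seen. A few genes are not reported here by name or value. The members and lists were chosen with earlier results of these data known.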

Additional observations from a re-analysis of the deposited data

Results flagged for a closer look

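For 9 members the treatment effect differed between TFR and Treg cells by a test of the difference of log2 fold changes. The differences, TFR minus Treg, were 1.03 for Ndufv1, 0.84 for Uqcrc1, 1.25 for Cox6a1, 0.89 for Cox7a2l, 0.62 for Atp5a1, 0.86 for Atp5b, 0.66 for Atp5c1, 1.23 for Atp5g2 and 0.96 for Atp5g3 (edgeR adjusted p of 7.6e-06 to 0.03). All 9 were larger in TFR cells, and Uqcrc1 was called in opposite directions in these subsets. Its Treg call held in 7 of 15 alternative fits.

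For 3 members the effect differed between TFH and Tconv cells. The differences, TFH minus Tconv, were 0.27 for Atp5b, -0.78 for Cox5b and -0.66 for Ndufs3 (edgeR adjusted p of 0.037 to 0.039). None of these 3 was called by the podocyte rule, and over the fits without 1 library the count ran from 0 to 7: it was 7 without control TFH library 2, 6 without control TFH library 3, 5 without control Tconv library 3, 1 without treated Tconv library 3 or treated TFH library 2, and 0 without treated Tconv library 1 or 2, control Tconv library 1 or 2 or treated TFH library 3.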

How the results depend on the processing

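Counts of called members changed by over 1.5 times under these settings. With only the libraries compared in the fit the count was 21 for treatment in Tconv, 25 for treatment in Treg, 1 for treatment in TFH, 41 for treated Treg against Tconv, 60 for treated TFR against TFH, 45 for treated TFH against Tconv, 52 for treated TFR against Treg, 8 for control Treg against Tconv, 0 for control TFR against TFH, 5 for control TFH against Tconv, 1 for control TFR against Treg and 18 for the effect in TFR minus Treg. By limma voom with quality weights it was 48 for treatment in Tconv, 26 for treatment in Treg, 0 for treatment in TFH, 43 for treated Treg against Tconv, 66 for treated TFR against TFH, 41 for treated TFH against Tconv, 62 for treated TFR against Treg, 20 for control Treg against Tconv, 0 for control TFR against TFH, 2 for control TFH against Tconv, 1 for control TFR against Treg and 0 for the effect in TFH minus Tconv. By DESeq2 it was 8 for treatment in Treg, 15 for treatment in TFH, 5 for treated Treg against Tconv, 44 for treated TFR against TFH, 22 for treated TFH against Tconv, 17 for treated TFR against Treg, 5 for control Treg against Tconv, 15 for control TFR against TFH, 14 for the effect in TFR minus Treg and 6 for the effect in TFH minus Tconv. By the podocyte rule it was 1 for treatment in Tconv, 2 for treatment in Treg, 5 for treatment in TFH, 24 for treatment in TFR cells, 9 for treated TFR against TFH, 7 for treated TFH against Tconv, 1 for control Treg against Tconv, 1 for control TFR against TFH, 7 for control TFH against Tconv and 0 for the effect in TFH minus Tconv. By the proximal tubule rule, chosen after seeing the data, it was 1 for treatment in Tconv, 2 for treatment in Treg, 13 for treated TFR against TFH, 1 for control Treg against Tconv and 1 for the effect in TFH minus Tconv. Without the low count filter it was 2 for treatment in Treg, 5 for treatment in TFH and 5 for control TFR against TFH, and with mitochondrially encoded genes left out of the scaling 1 for treated Treg against Tconv and 38 for treated TFR against TFH. With relative log expression factors no count moved that far. Leaving out 1 library gave counts of 4 to 6 for treatment in Tconv, 2 to 3 for treatment in Treg, 5 to 16 for treatment in TFH, 26 to 36 for treatment in TFR cells, 1 to 2 for treated Treg against Tconv, 9 to 17 for treated TFR against TFH, 7 to 9 for treated TFH against Tconv, 5 in each for treated TFR against Treg, 1 to 2 for control Treg against Tconv, 6 to 16 for control TFR against TFH, 8 to 22 for control TFH against Tconv, 3 to 11 for control TFR against Treg, 8 to 13 for the effect in TFR minus Treg and 0 to 7 for the effect in TFH minus Tconv. The causes were not tested, and fits with fewer libraries also tested other numbers of genes.

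Replicate numbers were not taken to pair the libraries, since in no comparison did all 3 same-numbered pairs correlate above 0.1: same-numbered libraries correlated at -0.0486 to 0.0793 in the treatment comparisons and at -0.711 to 0.589 between treated TFR and Treg libraries. Those of treated Treg and treated TFH cells, which no comparison set against each other, correlated at 0.451 to 0.766. With the replicate number as a block the count was 35 for treatment in TFR cells, 5 for control TFR against TFH and 0 for the effect in TFH minus Tconv, and within 1.5 times for the other comparisons.

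The 63 called values of single members kept their direction and side of the threshold in 710 alternative values and lost the call in 269. The change of Cox7a1 in control TFR against TFH cells became 0.00 without control TFH library 2, which held all its reads there, and was -10.21 without control TFH library 1. The 57 uncalled values changed sign in 52 of 828 alternative values and passed the threshold in 34. The control TFH and TFR libraries were the shallowest, and the part of depth in the counts was not tested.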
